A study of Mus musculus with 6 samples.

Results

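The genes examined here encode the proteins of the cytosolic ribosome, measured in mouse cumulus-oocyte complexes (COCs) cultured with the MTOR inhibitor Torin1 or with its vehicle DMSO. Members were taken by symbol: Rpl or Rps with a number and at most 1 trailing letter a, l or x, together with Rplp0, Rplp1, Rplp2 and Rpsa. The rule found 64 of the 22180 genes that had a probe set of their own, 40 of the large and 24 of the small subunit. Against a textbook list of 80 cytosolic ribosomal proteins, 57 were members and 2, Rps3a1 and Fau, were measured under symbols outside the rule. The other 21 had no probe set naming them and no other gene, and were not analysed here. The remaining 7 members are the paralogs and like-genes Rpl3l, Rpl6l, Rpl10l, Rpl32l, Rpl39l, Rps4l and Rps27l.

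A COC is an oocyte with the somatic cumulus cells that surround it. Torin1 (3 arrays) and DMSO (3 arrays) COCs came from Wildtype females primed with 5 IU of equine chorionic gonadotropin for 46 h, and their age is 21 days in one label and 23 days in another. Each group of 100 COCs was cultured with Torin1 at 5 µM or with DMSO, labelled 5 µM as well, for 14 h by one label and 16 h by another. All media held 3 mg/ml of albumin and 5 µM milrinone, which blocks the oocyte phosphodiesterase PDE3 and so holds oocytes at the germinal vesicle stage. Whether the 3 samples of a group were separate mice or cultures is not labelled, and the p-values therefore reflect sample-to-sample spread that could be technical. The description of Torin1 sample 3 carries the short name of Torin1 sample 2. The arrays measure RNA of oocyte and cumulus cells together, so fewer cells of a type and less RNA per cell cannot be told apart.

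Ribosomal protein mRNAs are the classic TOP mRNAs, whose first transcribed bases are a C followed by an unbroken stretch of pyrimidines. MTOR controls their translation through this 5′ terminal tract, to which the protein Larp1 binds when MTOR is inhibited, and Larp1 also stabilises these mRNAs. In the growing oocyte, ribosomes and their mRNAs are stored for the embryo, and a fully grown oocyte is transcriptionally silent while its cumulus cells transcribe. The measurements here are of transcript abundance and hold no reading of translation or of MTOR activity.

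To show what such a tract looks like in these genes, 30 bases around the annotated RefSeq start (GRCm38.p6, 12 bases before it and 18 from it on, strand of the gene) are given for those of the 6 highest and 6 lowest changes that had a start in the table, and for Rps27, the paralog of Rps27l. Where a gene had several starts, the one with the longest run is shown, or the first where none had it. Capitals mark a C followed by at least 4 letters that are each C or T, where this run begins within 5 bases of the annotated start on either side. Lower case alone means that no such run was found in that window.
Rplp2, chr7:141447639-141447668, plus strand: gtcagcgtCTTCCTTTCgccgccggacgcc
Rps26, chr10:128626489-128626518, minus strand: gggcaagccgccggatCCTCTTTCgagtct
Rps23, chr13:90923110-90923139, plus strand: ttcggctgggcggggCTTCCCgcaatgcct
Rpl9, chr5:65391414-65391443, minus strand: cagggccctgacggattacaagaacgtgat
Rpl37a, chr1:72711248-72711277, plus strand: cgctcgccggtctaaaaccgcgcatgcgca
Rpl6, chr5:121204489-121204518, plus strand: tcacctcccgtcattgcttatagaccggaa
Rpl3l, chr17:24727814-24727843, plus strand: tgttctagctctgtcatttgacctctggtg
Rpl39l, chr16:10170216-10170245, plus strand: ccaggcctttccggatttccggtggtcgcc
Rpl39, chrX:37085205-37085234, minus strand: aagctccgCCTCTagcgacttcttctaatc
Rps27l, chr9:66946074-66946103, plus strand: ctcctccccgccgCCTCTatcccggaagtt
Rps27, chr3:90213631-90213660, minus strand: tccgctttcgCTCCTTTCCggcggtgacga

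A RefSeq start was given for 49 of the 64 members, and 21 of these (42.9%) had the run at any of their starts, against 3684 of 16990 measured genes with a start (21.7%) and 6027 of all 32851 windows in the RefSeq table (18.3%). The annotated base can lie several bases from the one used in the cell, so a window without the run says only that these letters were not found there. Large subunit genes had it in 12 of 29 windows and small subunit genes in 9 of 20. Among the printed genes the run was present in members that were higher with Torin1, such as Rplp2, and in members that were lower, such as Rps26. The median log2 change of the 21 members with the run was -0.13, and that of the 28 without it was -0.14.

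Most ribosomal protein transcripts had a change below 0, but 2 of 64 passed the test, both of them higher with Torin1, and the 3 Torin1 samples differed among themselves. The median log2 change, Torin1 minus DMSO on the log2(intensity + 1) scale, was -0.14 over the 64 members and 0.01 over all genes. The change was below 0 in 50 members (78.1%), against 47.2% of all genes. At an adjusted p below 0.05 over all genes in limma, 2 members rose (Rpl39l and Rpl17), 0 fell and 62 were not called, which is 3.13% of the members beside 12.1% of all genes (5.13% higher and 6.94% lower). An unadjusted p below 0.05 was reached by 4 members with a change above 0 and by 6 with a change below 0, beside 11.3% and 12.7% of all genes. The Torin1 values lay below every DMSO value in 6 members and above every one in 5, beside 14.3% of all genes in each direction. The changes were small on the whole, from -0.54 to 0.46, with a median standard error (SE) of 0.13. The 95% interval lay within 1 log2 unit of 0 in 64 of 64 members, beside 90.9% of all genes, and within 0.5 in 36 (56.3%), beside 67.8%.

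**Figure D1:**
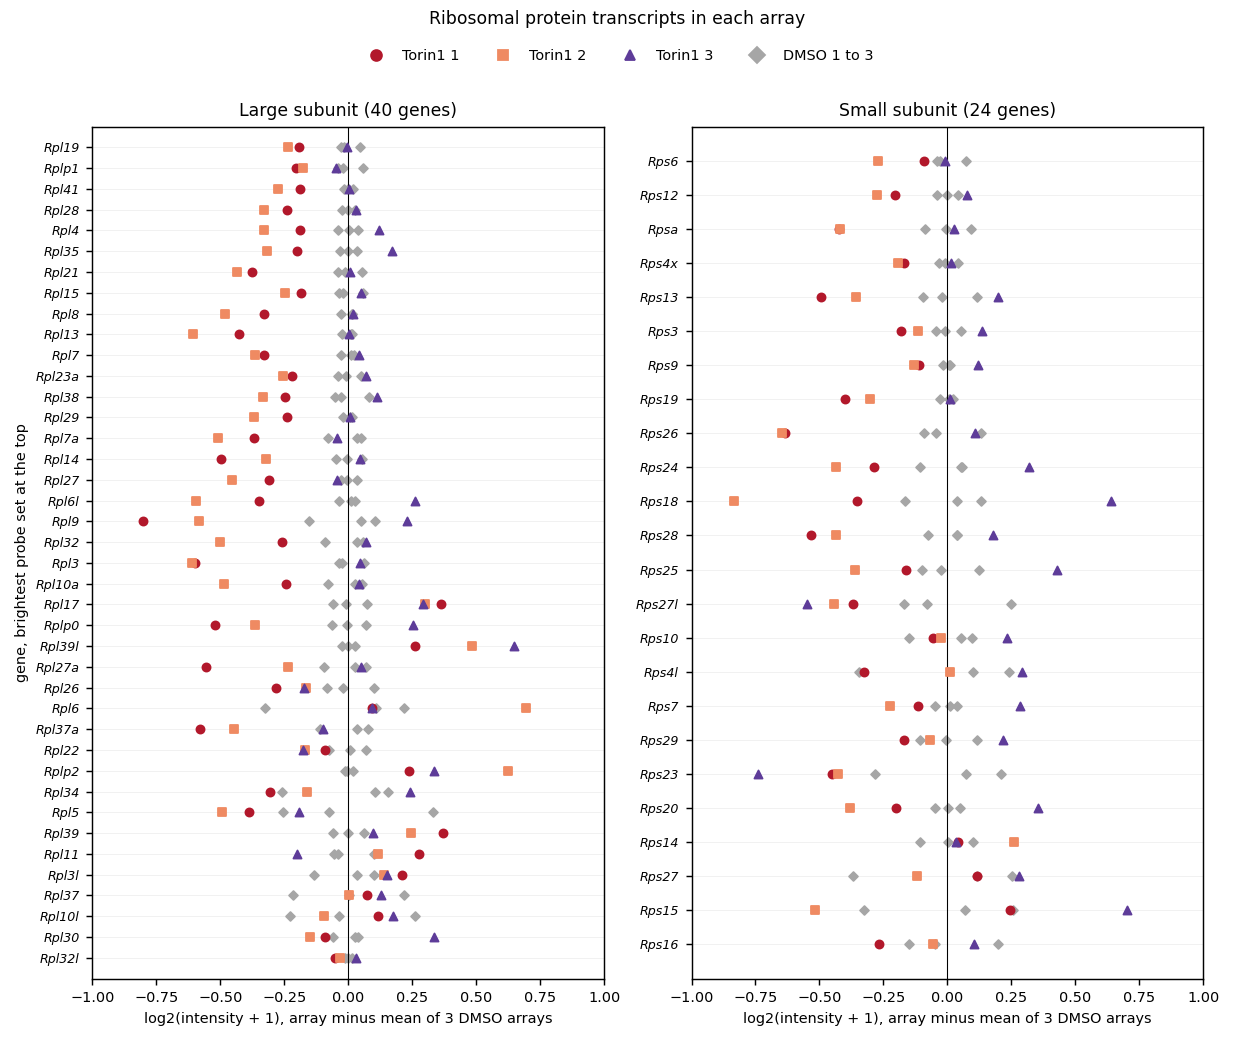
Each row is a ribosomal protein gene, in order of probe set brightness within its subunit, and the horizontal axis is the log2(intensity + 1) of an array minus the mean of the 3 DMSO arrays. Coloured points are Torin1 samples 1 to 3 and grey diamonds are the DMSO samples. In the upper rows Torin1 samples 1 and 2 lie left of all DMSO samples, while Torin1 sample 3 lies close to them or further right.

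The median over members hides a split between the Torin1 samples. Relative to the DMSO mean, the median member was at -0.23 in Torin1 sample 1, -0.29 in Torin1 sample 2 and 0.08 in Torin1 sample 3, while the DMSO samples lay at 0.04, -0.00 and -0.03. The group means of these array medians, -0.14 with Torin1 and 0.003 with DMSO, differed by about the SD within groups, 0.14. All genes had medians between -0.01 and 0.02 in each of the 6 arrays. Members below 0 numbered 52, 54 and 12 of 64 in Torin1 samples 1, 2 and 3. Below every DMSO sample were 50 members in Torin1 sample 1 (28.9% of all genes), 48 in Torin1 sample 2 (33.3% of all genes) and 7 in Torin1 sample 3 (30.1% of all genes). Above every DMSO sample were 6, 8 and 34 members, beside 32.0%, 30.6% and 35.9% of all genes. Torin1 sample 3 lay within the DMSO range in the other 23.

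In 47 of 64 members (73.4%) both Torin1 sample 1 and Torin1 sample 2 lay below every DMSO sample, beside 19.8% of all genes. Torin1 sample 3 lay above both other Torin1 samples in 53 members (82.8%), beside 38.8% of all genes. Both held in 43 members, beside 9.57% of all genes. The median SD within a group was 0.22 over the 3 Torin1 samples and 0.07 over the 3 DMSO samples, and the Torin1 SD was the larger in 54 of 64 members, beside 57.9% of all genes. Torin1 sample 3 exceeded the mean of the other two by a median of 0.34 over members, against 0.01 over all genes. The widest such gap was in Rps18, at 1.23, a gene chosen after its values were seen. Its values were 7.62, 7.14 and 8.61 in the Torin1 samples, against 8.10, 8.01 and 7.80 in DMSO. Of the summed intensity of all genes, members took 1.87%, 1.72% and 2.27% in Torin1 samples 1 to 3, against 2.24%, 2.26% and 2.14% in DMSO.

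**Figure D2:**
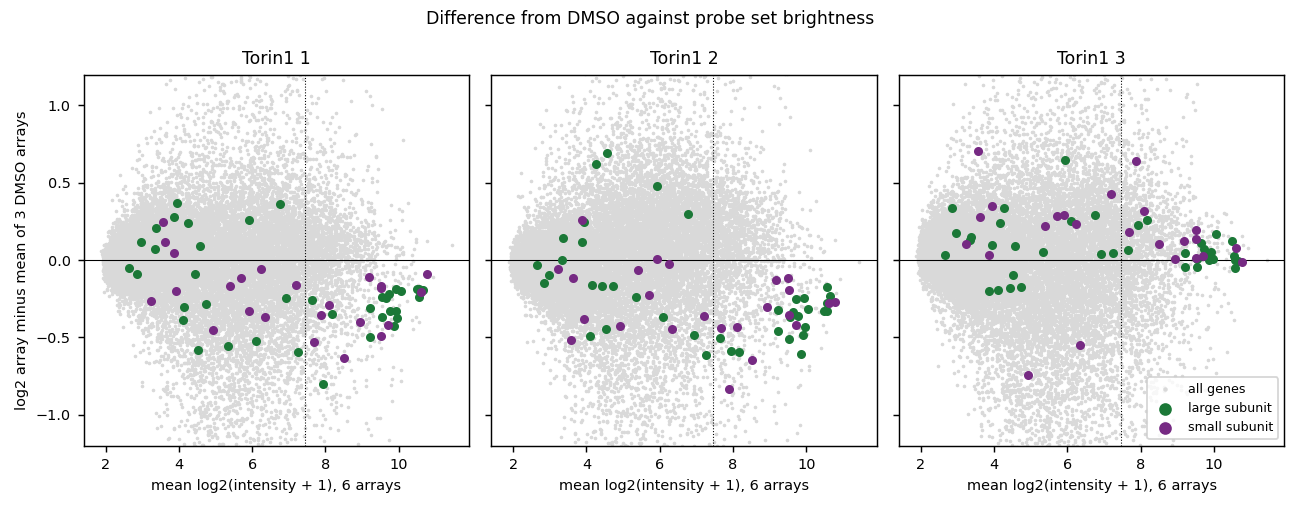
The horizontal axis is the mean log2(intensity + 1) over the 6 arrays and the vertical axis is the log2 difference of 1 Torin1 array from the mean of the 3 DMSO arrays, drawn from -1.2 to 1.2, with 1 panel for each Torin1 sample. Green and purple points are large and small subunit members, grey points are all genes, and the dotted line is the median brightness of the members. Right of that line every member is below 0 in Torin1 samples 1 and 2, and members lie around 0 in Torin1 sample 3.

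The split was clearest among bright probe sets. Members were divided at their median brightness, 7.45 on the log2 scale, into 32 bright and 32 dim members; brightness describes the probe set and is not a level that can be set against another gene's. Of the bright members 32 of 32 had a change below 0, with a median of -0.19. Of the dim members 18 were below 0, with a median of -0.01. The bright members' medians were -0.27, -0.35 and 0.05 in Torin1 samples 1 to 3, and those of the dim members were -0.10, -0.13 and 0.14. Torin1 samples 1 and 2 both lay below every DMSO sample in 32 of 32 bright members, beside 29.9% of the 1927 genes at or above the members' median brightness, and in 15 of 32 dim members. Torin1 sample 3 lay above both in the same 32 bright members, beside 40.4% of those 1927 genes, whose median change was 0.05. Of the 32 bright members 0 were called in limma in the full set, with 2 at an unadjusted p below 0.05, and 0 were called when only those 1927 genes were tested, beside 36.3% of them.

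In successive groups of 16 members the median change was -0.15, -0.23, -0.12 and 0.06 from the brightest to the dimmest. The bright minus dim difference, -0.18, became -0.10 with only genes above the median gene and 0.020 with only the 5545 brightest genes, settings that leave out the dimmest members. In the setting of 5545 genes 2 of 39 members were called, Rpl17 higher and Rps27l lower, beside 31.7% of the genes. Across the 64 members the change and the brightness had a Pearson r of -0.43 and a Spearman rho of -0.43, a description over genes that share the same 6 arrays and their normalization. Of the dim members, 14 lay at or below the median gene of the array.

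The 4 brightest probe sets were those of Rps6, Rpl19, Rps12 and Rplp1. Rps6, the small subunit protein phosphorylated by the S6 kinases downstream of MTOR, had log2 values of 10.74, 10.56 and 10.82 in Torin1 samples 1 to 3, against 10.91, 10.79 and 10.80 in DMSO. Torin1 samples 1 and 2 were below all DMSO samples, and Torin1 sample 3 was among them. Its change was -0.12 ± 0.09 (SE). Rpl19 had 10.54, 10.50 and 10.73 with Torin1, against 10.78, 10.71 and 10.70 with DMSO. For Rps12 the values were 10.48, 10.41 and 10.76 with Torin1, against 10.72, 10.68 and 10.64 with DMSO. In both genes Torin1 sample 3 reached the DMSO samples and the other Torin1 samples did not. The 4 dimmest, Rps16, Rpl10l, Rpl30 and Rpl32l, had changes of -0.07 to 0.06 and no call. With quantile normalization the changes of the 4 brightest were smaller, at -0.07 for Rps6, -0.09 for Rpl19, -0.06 for Rps12 and -0.07 for Rplp1. The median of the bright members as a whole did not shrink with it, at -0.21 beside -0.19 on the values as deposited.

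The median change was -0.16 over the 40 large subunit members and -0.10 over the 24 small subunit members, a difference of -0.06. By array the large minus small difference was -0.04, -0.01 and -0.11 in Torin1 samples 1 to 3, against -0.04, 0.02 and 0.01 in DMSO. The arrays of the 2 groups overlapped in this difference, whose SD within groups was 0.04. Among bright probe sets the medians were -0.21 for the large and -0.16 for the small subunit. Torin1 samples 1 and 2 both lay below every DMSO sample in 30 of 40 large and 17 of 24 small subunit members. The 2 called members are both of the large subunit.

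**Figure D3:**
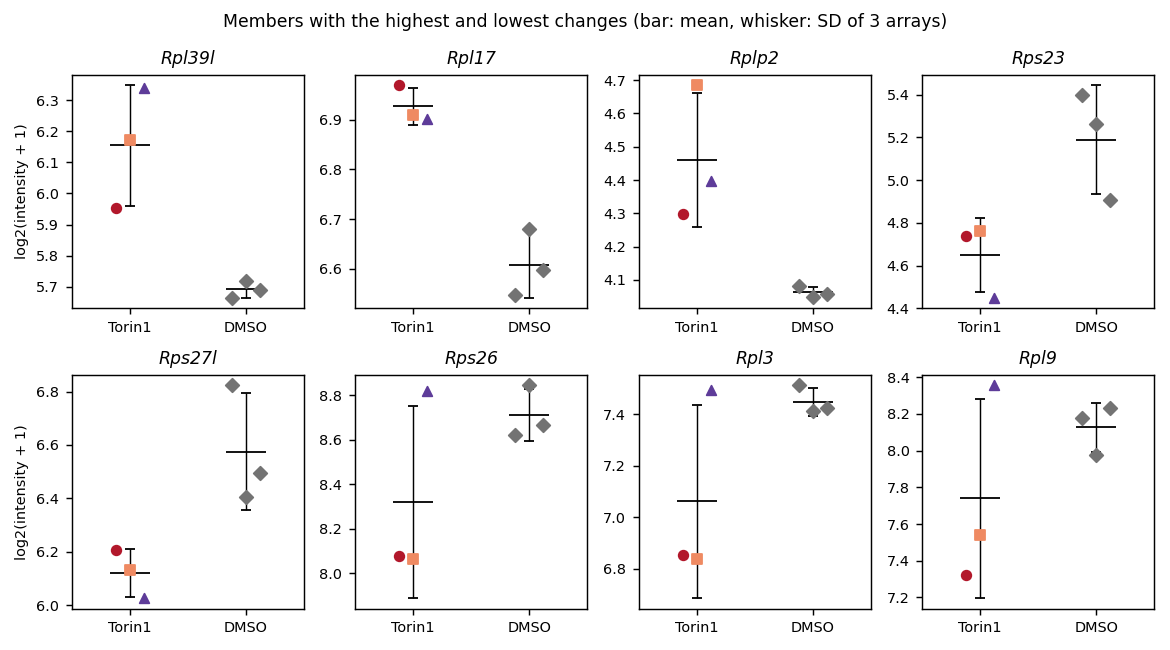
Log2(intensity + 1) of 8 members with high or low changes, Torin1 left and DMSO right in each panel; circles, squares and triangles are Torin1 samples 1, 2 and 3, bars are means and whiskers the SD of 3 arrays. Each panel has its own vertical axis, which does not start at 0. In the panels of Rps26, Rpl3 and Rpl9 the triangle of Torin1 sample 3 stands apart from the other Torin1 samples, and in those of Rpl39l, Rpl17, Rplp2, Rps23 and Rps27l all Torin1 points lie on 1 side of the DMSO points.

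Rpl39 is a small protein that lines the peptide exit tunnel of the large subunit, and Rpl39l is its paralog, known in the mouse from male germ cells. Rpl39l had 5.95, 6.17 and 6.34 in Torin1 samples 1 to 3, against 5.66, 5.72 and 5.69 in DMSO. All Torin1 values lay above all DMSO values, and the rise was 0.46 ± 0.11 (SE; adjusted p = 0.033 in limma), or 138% of DMSO. It was called again without Torin1 1 and without Torin1 3, and not when any of the other 4 samples was left out (adjusted p up to 0.11). Rpl39 itself had 4.19, 4.06 and 3.92 with Torin1, against 3.88, 3.76 and 3.82 with DMSO. Its Torin1 values were likewise above its DMSO values, with a change of 0.24 ± 0.09 that was not called (adjusted p = 0.17). The Rpl39 probe set, at a mean of 3.94, lay below the median gene, 4.17. Rpl17, which sits at the tunnel's exit, had 6.97, 6.91 and 6.90 with Torin1, against 6.55, 6.68 and 6.60 with DMSO. Its rise of 0.32 ± 0.07 (adjusted p = 0.033) was close to equal in the 3 Torin1 samples, and the call was lost when any sample but Torin1 3 was left out (adjusted p up to 0.11). Rpl26, also near the tunnel exit, was lower with Torin1, at 4.55, 4.67 and 4.66, against 4.75, 4.94 and 4.81 with DMSO, and its change of -0.21 ± 0.08 was not called (adjusted p = 0.17).

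The P stalk, the lateral arm of the large subunit that recruits elongation factors, had members on both sides of 0. Rplp2 had 4.30, 4.69 and 4.40 with Torin1, against 4.08, 4.05 and 4.06 with DMSO. The groups did not overlap, and the change of 0.40 ± 0.11 missed the threshold (adjusted p = 0.061 in limma). The Rplp2 probe set, at a mean of 4.26, lay near the median gene of the array, 4.17. Rplp0, the stalk's base, had 5.68, 5.84 and 6.46 with Torin1, against 6.27, 6.20 and 6.14 with DMSO. Its change was -0.21 ± 0.19, with Torin1 sample 3 above every DMSO sample and the other Torin1 samples below. A dimmer probe set of Rplp0, at 4.82 beside 6.10, had a change of 0.17, and with the mean of its probe sets the change was -0.02. Rplp1, the partner of Rplp2, had 10.45, 10.47 and 10.60 with Torin1, against 10.61, 10.71 and 10.63 with DMSO, a change of -0.14 ± 0.08 with no overlap between the groups (adjusted p = 0.34).

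Rpl5 and Rpl11 form a complex with 5S ribosomal RNA and bind the p53 ligase Mdm2 when ribosome assembly is disturbed. Rpl5 had 3.89, 3.79 and 4.09 with Torin1, against 4.21, 4.61 and 4.03 with DMSO, a change of -0.36 ± 0.16 (adjusted p = 0.23). Rpl11 had 4.12, 3.96 and 3.64 with Torin1, against 3.78, 3.94 and 3.80 with DMSO. The groups overlapped in both genes, and the change of Rpl11 was 0.06 ± 0.13. Both probe sets lay near the median gene of the array, 4.17.

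Several large subunit members shared the pattern of 2 low Torin1 samples and 1 at the DMSO level. Rpl3, a core protein next to the catalytic centre, had 6.85, 6.84 and 7.50 with Torin1, against 7.51, 7.41 and 7.43 with DMSO. Rpl9 had 7.32, 7.54 and 8.35 with Torin1, against 8.18, 7.97 and 8.23 with DMSO. Their changes were -0.39 ± 0.18 and -0.39 ± 0.25, and neither was called. Torin1 sample 3 lay within the DMSO range for Rpl3 and above it for Rpl9. Rpl37a had 4.14, 4.27 and 4.62 with Torin1, against 4.80, 4.75 and 4.61 with DMSO, and a change of -0.38 ± 0.13 (adjusted p = 0.13). Rpl7a and Rpl27 had changes of -0.31 ± 0.13 and -0.27 ± 0.11 at an unadjusted p below 0.05, with adjusted p of 0.19 and 0.20. In Rpl27, Torin1 sample 3, at 9.31, lay just below the DMSO samples (9.32 to 9.39). Rpl22, an RNA-binding protein of the ribosome's surface that the mouse can do without, had a change of -0.15 ± 0.08. It did not share the pattern: its values were 4.41, 4.33 and 4.32 with Torin1, all below those with DMSO (4.43 to 4.57). Rpl6, by contrast, had 4.51, 5.11 and 4.51 with Torin1, against 4.64, 4.09 and 4.53 with DMSO, a change of 0.29 ± 0.21 in which Torin1 sample 2 alone lay above every DMSO sample.

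In the small subunit, 2 members were lower in all 3 Torin1 samples without passing the threshold. Rps23, a protein of the decoding centre, had 4.74, 4.76 and 4.45 with Torin1, against 5.40, 5.26 and 4.91 with DMSO. Its change of -0.54 ± 0.15 was the lowest of the 64 members (adjusted p = 0.063), equal to 68.8% of DMSO. Rps27l had 6.21, 6.13 and 6.03 with Torin1, against 6.82, 6.41 and 6.49 with DMSO, and its change was -0.45 ± 0.12 (adjusted p = 0.058). Torin1 sample 3 had the lowest value of all 6 samples in both, the reverse of its place among the bright members. With only genes above the median gene tested, Rps23 and Rps27l were called lower and Rplp2 higher, beside 24.7% of the genes of that setting.

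Rps26, which lines the path of the mRNA out of the ribosome, followed the bright members, with 8.08, 8.07 and 8.82 with Torin1, against 8.62, 8.84 and 8.67 with DMSO. Its change was -0.39 ± 0.20. Rps19 and Rps14, whose human counterparts are mutated or lost in inherited and acquired anaemia, differed in direction. Rps19 had 8.65, 8.75 and 9.06 with Torin1, against 9.07, 9.06 and 9.02 with DMSO, and Rps14 had 3.86, 4.08 and 3.85 with Torin1, against 3.71, 3.92 and 3.82 with DMSO. Their changes were -0.23 ± 0.11 and 0.11 ± 0.10, neither called, and the groups overlapped in both genes. The Rps14 probe set, at a mean of 3.87, lay below the median gene, 4.17, so its direction is uncertain. Rpsa, known also as the laminin receptor, and Rps3, at the mRNA entry, had changes of -0.27 ± 0.14 and -0.05 ± 0.10. In Rpsa, Torin1 samples 1 and 2 were both at 9.43, below all DMSO samples (9.76 to 9.94), and Torin1 sample 3 was at 9.87.

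Among paralog pairs, Rps27l had the change of -0.45 given above, while Rps27 had 3.69, 3.46 and 3.86 with Torin1, against 3.83, 3.69 and 3.21 with DMSO, and a change of 0.09 ± 0.18. Rpl3l, known in the mouse from heart and skeletal muscle, had a change of 0.17 ± 0.08 beside -0.39 in Rpl3. The probe sets of Rps27 and Rpl3l, at means of 3.62 and 3.37, lay below the median gene, 4.17. Rps4x and Rps4l had changes of -0.12 ± 0.08 and -0.01 ± 0.20. Rpl10l, known from the testis, had 3.05, 2.84 and 3.11 with Torin1, against 2.71, 3.20 and 2.90 with DMSO, near the lower end of the array's scale. Rpl10 and Rps27a were not analysed here. Differences within a pair were not tested, and near-identical copies can share signal, so values of single paralogs are uncertain.

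Leaving out Torin1 sample 3 turned the count of called members. With Torin1 samples 1 and 2 against the 3 DMSO samples, 17 members fell and 2 rose, beside 7.64% and 6.26% of all genes (13.9% together), and the median change was -0.25. The 2 that rose were again Rpl17 and Rpl39l. Those that fell include both subunits and the stalk: 12 of the large subunit, among them Rpl3, Rpl9, Rpl37a, Rpl7a, Rpl27 and Rplp0, and Rps26, Rpsa, Rps19 and, named after their values were seen, Rps13 and Rps28. In that comparison Rpl9 fell by 0.69 on the log2 scale (SE 0.11; adjusted p = 0.0094 in limma), Rps26 by 0.64 (SE 0.10; adjusted p = 0.0062) and Rpl3 by 0.61 (SE 0.08; adjusted p = 0.0038). Rplp0 fell by 0.44 (SE 0.09; adjusted p = 0.021) and Rpsa by 0.42 (SE 0.09; adjusted p = 0.022). Rps23, Rps27l and Rplp2 were not called there. With all 6 samples the adjusted p in limma was 0.45 for Rpl9, 0.32 for Rps26 and 0.24 for Rpl3. It was 0.63 for Rplp0 and 0.29 for Rpsa. The sample left out is the one that lay above both other Torin1 samples in 53 of 64 members. The p-values without it depend on that choice and are no separate evidence of a fall. Without any other single sample 0 or 1 member was called, beside 8.39% and 9.13% of all genes without Torin1 sample 1 or 2 and 7.80%, 7.95% and 6.84% without DMSO sample 1, 2 or 3.

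**Figure D4:**
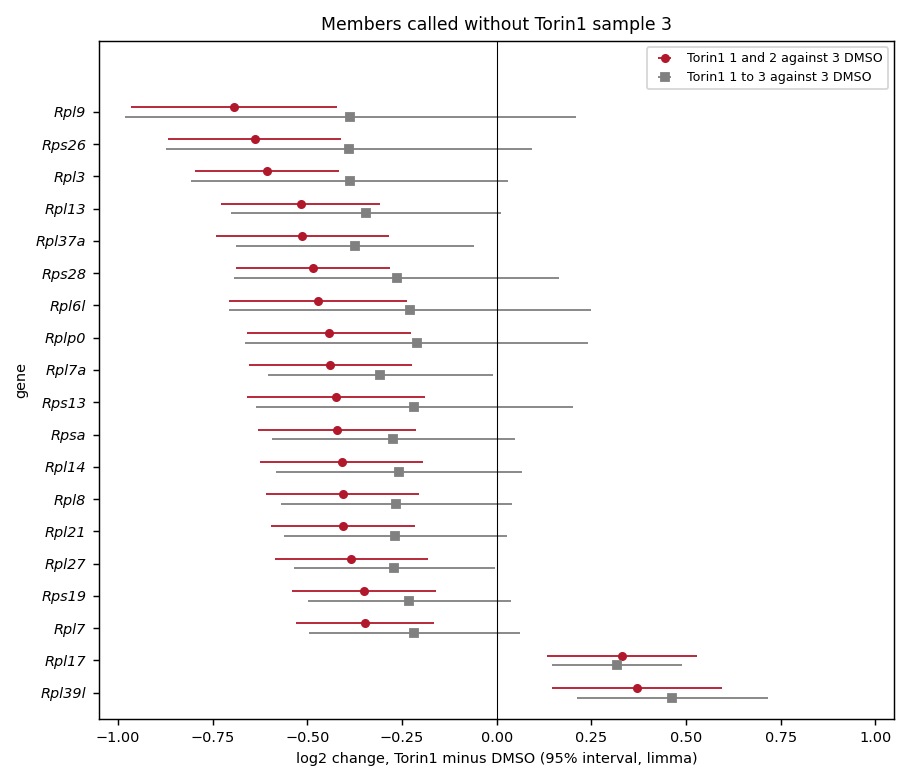
Log2 change, Torin1 minus DMSO, with its 95% interval from limma, for the 19 members called when Torin1 sample 3 is left out; circles are the fit of Torin1 samples 1 and 2 against 3 DMSO samples and squares the fit of all 6 samples. For the 17 members that fell without Torin1 sample 3, the squares lie nearer 0 and most of their intervals cross 0, while Rpl17 and Rpl39l are above 0 in both fits. The intervals of the circles depend on the choice of the sample left out.

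Torin1 sample 3 stood apart over the array as well. Over all genes, log2 differences had an SD of 0.20 between Torin1 samples 1 and 2 and of 0.33 and 0.35 between these and Torin1 sample 3, against 0.21 to 0.24 among DMSO samples. Markers of both cell compartments were read from the same fit. The 12 oocyte markers all had changes above 0, and 2 were called higher, Dppa3 and Figla. That is 16.7%, beside 12.1% of all genes and 25.2% of the 5545 brightest genes. The oocyte medians were 0.11, 0.23 and 0.32 in Torin1 samples 1 to 3. Their summed intensities were 5983 to 6554 with Torin1, against 5371 to 5694 with DMSO. The 11 cumulus or granulosa markers had 7 called lower and 2 higher (Ptx3 and Has2), medians of -1.08, -1.09 and -0.59 in Torin1 samples 1 to 3, and summed intensities of 2575 to 2720 with Torin1, against 3087 to 3344 with DMSO. Theca, endothelium and immune lists had 2 of 3 measured markers lower (Ptch1 and Acta2), 1 of 4 higher (Cdh5) and 1 of 5 higher (Cd68), and 0 of 3 surface epithelium markers were called. The summed intensities with Torin1 and with DMSO were 107 to 126 against 460 to 588 for theca, 135 to 254 against 87 to 94 for endothelium, 58 to 63 against 49 to 52 for immune and 34 to 43 against 35 to 38 for surface epithelium. Cyp11a1, Cyp17a1, Tek, Ptprc, Adgre1, Csf1r, Itgam and all 3 surface epithelium markers (Krt19, Krt7 and Upk3b) lay below the median gene, and no marker was listed at 0. The part of the cell make-up and of Torin1 sample 3 itself in the ribosomal protein values was not tested.

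Other transcripts of translation were read from the same fit. In that fit 25.2% of the 5545 brightest genes were called, beside 12.1% of all genes. The lists below are bright, with median levels of 8.69 for the TOP mRNAs, 7.22 for their regulators and 6.76 for the assembly factors. Of 18 further TOP mRNAs, which encode translation factors and a few other proteins, 3 rose, 0 fell and 15 were not called (16.7% called, beside 12.1% of all genes), and their median change was -0.10. Their array medians, -0.16, -0.22 and 0.10 in Torin1 samples 1 to 3, had the order of the ribosomal protein medians. The 3 that rose were Pabpc1, the poly(A)-binding protein (0.76 ± 0.12, adjusted p = 0.0069), Vim, an intermediate filament (0.73 ± 0.18, adjusted p = 0.048), and Eif4b, a cofactor of the helicase eIF4A (0.44 ± 0.07, adjusted p = 0.0092). Pabpc1 and Eif4b were called again whichever sample was left out, whereas Vim was called in 1 of the 6 such fits (adjusted p up to 0.14). Of 12 regulators of TOP mRNAs 1 rose, Larp4b (0.54 ± 0.09, adjusted p = 0.0082), and 11 were not called (8.33% called). Of 20 factors that escort ribosomal proteins or finish the subunits, 4 rose, 0 fell and 16 were not called, beside 12.1% of all genes called, with a median of 0.11. These were Nob1, the nuclease that matures the small subunit's RNA (0.54 ± 0.11), and Zfp622 (0.45 ± 0.11), Sbds (0.39 ± 0.09) and Eif6 (0.29 ± 0.07), which act in the last steps of large subunit maturation. Eif6 was named after its values were seen. The array medians of the 20 factors were 0.10, 0.22 and 0.17 in Torin1 samples 1 to 3. In DMSO samples 1 to 3 they were 0.16, -0.14 and 0.004, so DMSO sample 1 lay among the Torin1 samples. Nob1 was called again in 3 of the 6 fits that left out a sample (adjusted p up to 0.094), and Zfp622, Sbds and Eif6 in 1 each (adjusted p up to 0.15, 0.13 and 0.13).

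The proteins of the mitochondrial ribosome, which translates the few mRNAs of the mitochondrial genome, showed another pattern by array. Of 73 measured, 62 were not called, 10 fell and 1 rose, and the median change was -0.17. The share called was 15.1%, beside 12.1% of all genes (6.94% lower and 5.13% higher) and 25.2% of the 5545 brightest genes. Mrpl42, Mrpl13 and Mrpl28 changed most, by -0.68 ± 0.17, -0.56 ± 0.11 and -0.54 ± 0.11. The 1 that rose was Mrps18b (0.43 ± 0.11), named after its values were seen. When a sample was left out, Mrpl13 and Mrpl28 were called again in 3 of 6 fits (adjusted p up to 0.069 and 0.081), and Mrpl42 and Mrps18b in 1 each (adjusted p up to 0.14 and 0.16). The mitochondrial medians were -0.14, -0.05 and -0.22 in Torin1 samples 1 to 3, against 0.07, -0.07 and -0.01 in DMSO. Torin1 sample 2 lay within the DMSO range. The mitochondrial median was lowest in Torin1 sample 3, where the cytosolic median was highest. This difference between the lists was not tested.

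**Figure D5:**
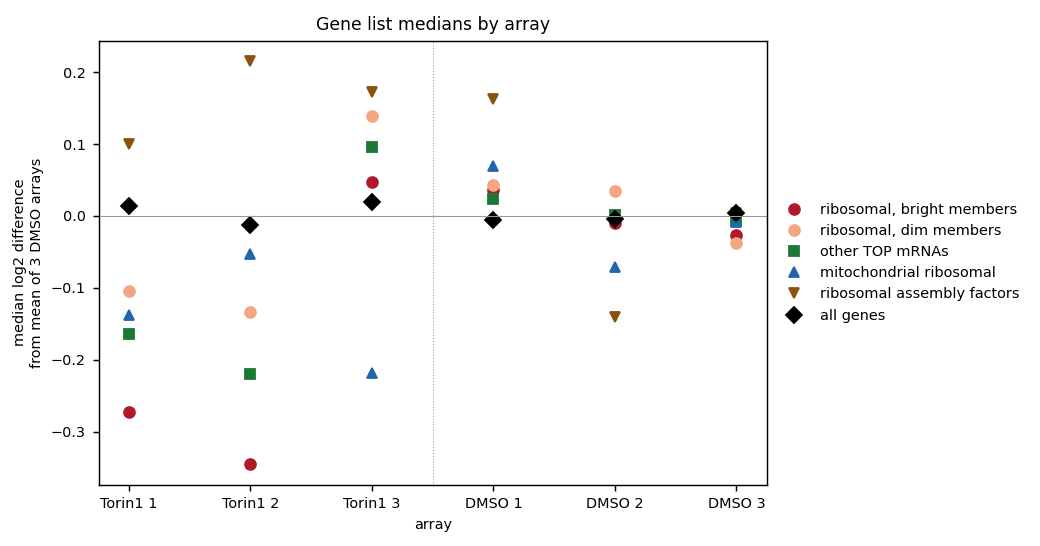
Median log2 difference from the mean of the 3 DMSO arrays for 6 gene lists, with 1 column of points for each Torin1 array and then each DMSO array. Bright ribosomal protein members lie at -0.27 and -0.35 in Torin1 samples 1 and 2 and at 0.05 in Torin1 sample 3, mitochondrial ribosomal proteins are lowest in Torin1 sample 3, and all genes lie near 0.

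Of the genes kept out of the rule, Rps3a1 and Fau, which are small subunit proteins under other symbols, had changes of -0.29 and -0.10, and Rpl22l1 and Rpl7l1 had changes of 0.16 and 0.02, with 0 of the 4 called. Within members, 24 genes had more than 1 probe set of their own. The brightest and the dimmest differed by over 1 log2 unit in 23 of them and by over 4 in 13, and in 10 the change did not have the same sign in all probe sets of the gene. With the mean of a gene's probe sets the same 2 members, Rpl17 and Rpl39l, were called, and the median change was -0.13.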

How the data were processed

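Arrays held amplified, biotin-labelled cDNA (NuGEN Ovation Pico WTA) from 3 Torin1 and 3 DMSO samples, per the labels' protocols. The deposited values are probe set intensities on a linear scale. Per the submitters' processing notes, the authors used GCOS, RMA and Affymetrix Expression Console 1.1, with settings not given in the sources used. RMA normalizes between arrays, and changes are therefore relative to the rest of the array. The values ran from 2.25 to 3268, with array medians of 11.1 to 11.97, and no per-probe background was used. As there are 3 arrays a group, their number limits the precision, and an exact permutation test could not go below p = 0.1.

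The platform's gene table listed 25335 of the 41345 probe sets, and 23521 of these named 1 gene, 1814 several, while 16010 were unnamed here. For 23328 probe sets the Entrez identifier matched RefSeq, with 0 symbols changed. The brightest probe set per gene over the 6 arrays was kept. log2(intensity + 1) was fitted with limma 3.58.1 in R 4.3.3 (lmFit, eBayes, two-sided, no covariate, no filter), with Benjamini-Hochberg adjustment over 22180 genes. A fold change on this scale understates that of dim genes. The fit was tested on simulated data. Tests of set enrichment were not made.

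Members and lists were chosen with earlier results of these data known. Named members were those called, the 6 highest and 6 lowest changes, the 4 brightest and 4 dimmest, those with an unadjusted p below 0.05 and a fixed set of paralogs and well-known members; of each other list, up to 3 called genes with the largest change. The counts of genes with Torin1 samples 1 and 2 below DMSO and Torin1 sample 3 above both were chosen after seeing the data. Alternatives changed the pseudocount (16 or 0), the filter, normalization, probe set per gene, moderation, array weights, a replicate block, samples and members. Start sequences are of RefSeq, GRCm38.p6.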

Additional observations from a re-analysis of the deposited data

Results flagged for a closer look

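Probe sets that name several genes were left out of the comparisons above. Of these, 57 include a symbol that fits the rule for members, in 47 distinct sets of symbols. The gene of such a symbol need not be a member, as 12 textbook genes without a probe set of their own are named in them too. Fitted with the other genes, 4 of the 47 (8.51%) were called at an adjusted p below 0.05 in limma, 2 higher and 2 lower with Torin1, beside 11.8% of the 23466 entries of that fit, and they are counted without a gene name because their signal cannot be given to 1 gene. They stand here because they lie outside the main measurement, and their share of calls is not above that of all entries. Their median change was -0.12, with 31 below 0. The 14 brightest of them, at 9 or above on the log2 scale, had changes of -0.41 to -0.02. In all 14 both Torin1 sample 1 and Torin1 sample 2 lay below every DMSO sample, beside 19.8% of all genes. That share was 29.9% among the 1927 genes at or above the median member. Torin1 sample 3 lay below every DMSO sample in 2 of 14, beside 30.1% of all genes. For Rpl30, Rpl34, Rps16 and Rps27, at or below the median gene in their own probe sets, a shared probe set was 5.59 to 7.72 log2 units brighter. Dim members above the median gene had brighter shared probe sets as well. Rpl37a was at 4.53 in its own and 10.36 in a shared one, Rpl27a at 5.34 and 9.90, and Rpl26 at 4.73 and 7.48.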

How the results depend on the processing

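Over all genes 2678 were called in the full set, 1755 with only the 5545 brightest genes tested and 699 with only genes at or above the median member, a setting added after seeing the data, and 1518 to 3083 when 1 sample was left out. The 2 called members became 5 of 50 with only genes above the median gene, beside 24.7% of the 11090 genes. With array weights 4 were called (Rpl3 and Rpl37a lower), beside 3359 of 22180 genes. A variance trend and robust moderation called 0 (14 members at an unadjusted p below 0.05), beside 2641 of 22180 genes. With only genes at or above the median member 0 were called (2 at an unadjusted p below 0.05), beside 36.3% of the 1927 genes. The textbook list alone had 1 called, and leaving out 1 sample gave 0 to 19, beside the 1518 to 3083 of all genes. With the shared probe sets added to the fit the 2 members were called as before, and 4 shared probe sets beside them made 6 calls. Quantile normalization called Rpl39l higher and Rps27l lower, beside 2954 of 22180 genes called. Averaging Torin1 samples 2 and 3 called Rpl17 higher and Rpl3 and Rpl13 lower, beside 2914 of 22180. The other lists had 19 of 127 genes called, beside 12.1% of all genes and 25.2% of the 5545 brightest genes. With array weights they had 29, beside 3359 of 22180. They had 8 of 35 called with only genes at or above the median member, beside 36.3%, and 4 to 14 when 1 sample was left out. The members' median stayed below 0 in every setting run, from -0.25 to -0.07 when 1 sample was left out. The bright minus dim difference, -0.18, became -0.10 with only genes above the median gene and 0.020 with only the 5545 brightest genes, which leave out dim members, and ran from -0.21 to -0.14 when 1 sample was left out. The large minus small difference ran from -0.10 to -0.014 when 1 sample was left out, at -0.014 without DMSO sample 2. Centring each array on its median moved the median of all genes to 0.03 and the members' median to -0.12. The causes of these changes between settings were not tested.

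Replicate numbers did not pair the samples: same-numbered samples had correlations of -0.21, -0.30 and -0.15 in their deviations from the group means. No sample correlated best with its own number. With the replicate number as a block, 1565 genes were called, 1 member (Rps23, lower) and 1 gene of the other lists. Without a measured background, how far 14 of 64 members at or below the median gene stand above it is unknown here.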
